A study of Mus musculus with 2 samples.

Results

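The genes described here are the cytosolic ribosomal protein genes, taken by name: every gene symbol made of Rpl or Rps and a number, with Rplp0, Rplp1, Rplp2 and Rpsa, and without pseudogenes or the Rps6k kinases. The rule found 83 of the 32285 genes in the tables, 32 of the small and 51 of the large ribosomal subunit, on 19 chromosomes. UMIs (unique molecular identifiers, which count captured transcripts once each) were seen for 82 of them in each library, and Rpl10l had 0 UMIs in both. The data are 2 single-cell libraries from mouse liver, 1 labelled E18.5 (embryonic day) and 1 labelled P180 (postnatal day), each given as a single sample. The labels do not say whether several embryos were pooled for the first. Both hosts were Hhex knockouts that had received tetraploid embryonic stem cells (4N-ESCs, carrying tdTomato) as blastocysts, and both were kept under ordinary husbandry. No untreated or diploid sample was analysed here, and tdTomato is not among the genes in the tables used, so host and donor cells were not told apart. With 1 library for each label, and cells of a library sharing their preparation, no comparison below has a replicate test. The intervals are 95% intervals of the counting error only.

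Each cytosolic ribosome joins a small subunit, which reads the messenger RNA, to a large subunit, which forms the peptide bond, and almost every ribosomal protein is present once per ribosome. Their messenger RNAs are among the most abundant of a growing cell and typically begin with a C followed by a tract of pyrimidines, the terminal oligopyrimidine tract, through which mTOR signalling controls their translation. Red cell precursors make large amounts of globin and then lose their ribosomes as they mature. Loss of a copy of Rps19 or of several other members causes Diamond-Blackfan anaemia, a failure of red cell production. In the neutrophil lineage the early, granule-making stages are rich in ribosomes, and the mature cell makes little protein.

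Starts of members on which the results turn are shown because the pyrimidine tract is the feature this family is known for. The windows hold the 20 bases before and the 10 bases from the RefSeq start, on the sense strand of GRCm38.p6, with the longest run of C or T in capitals. They are the 3 members of the largest differences by haemoglobin (Rps18, chr17:33955656-33955685, minus strand; Rpl12, chr2:32961692-32961721, plus strand; Rpl18, chr7:45718051-45718080, plus strand), 3 of the 4 smallest (Rpl41, chr10:128549159-128549188, minus strand; Rpl24, chr16:55966255-55966284, plus strand; Rpl37a, chr1:72711240-72711269, plus strand) and 2 that stand apart in neutrophil-like cells (Rps27, chr3:90213639-90213668, minus strand; Rps9, chr7:3704021-3704050, plus strand).
Rps18: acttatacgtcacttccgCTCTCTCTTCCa
Rpl12: gcgtgggcggagcaggatccgTCTTTTCgg
Rpl18: acgagtgcgtctcgcaggccgCTCTTTCCC
Rpl41: gacgacacacgggccggCTCggaagtgacg
Rpl24: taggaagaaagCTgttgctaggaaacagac
Rpl37a: gtcaCTTCCgctcgccggtctaaaaccgcg
Rps27: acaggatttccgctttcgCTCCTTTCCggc
Rps9: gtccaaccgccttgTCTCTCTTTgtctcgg
The runs are 11 bases in Rps18, 7 in Rpl12, 9 in Rpl18, Rps27 and Rps9, 5 in Rpl37a, 3 in Rpl41 and 2 in Rpl24. These few windows were chosen by the members' ratios, and no relation between run and ratio is read from them. A run of at least 8 lies in 12.6% of the 32851 windows of this length in the table. RefSeq windows were given for 63 of the 83 members (75.9%), too few for a count over the family. A short run says only that these letters are not in this window, since an annotated start can lie beside the start that is used.

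Among the 4543 cells kept with the E18.5 label, 28920397 UMIs were counted (median 4726 per cell), and 12.6% of them came from the members. The 8847 cells kept with the P180 label held 82112894 UMIs (median 5905), 7.98% of them from the members. Before filtering, the members gave 10.6% of the UMIs of 9871 barcodes labelled E18.5 (median 2326). They gave 7.76% in 9771 barcodes labelled P180 (median 5899). Haemoglobin genes took 1.13% of the library labelled E18.5 and 35.0% of that labelled P180, and mitochondrial genes 7.11% and 1.05%. Cell classes were rebuilt from marker genes and carry the suffix -like. Of 4543 cells labelled E18.5, 24 were erythroid-like, against 6938 of 8847 labelled P180, while clusters named T cell-like and plasma cell-like were found in the library labelled E18.5 and not in the other. Red cells are made in the liver before birth and rarely in the adult, so the cell content runs against the stage labels. Each library is therefore called by its label, and no difference between them is read as a change with age. No cluster of either library was named hepatocyte-like, and 28 cell barcodes occur in both libraries (0.284% and 0.287% of each).

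Apart from a few paralogues, each member had at least 337 counts per 1000000 UMIs (CPM) in both libraries. These 3′ counts do not grow with transcript length. Over all kept cells, the 77 members that are no paralogue lay between 396 CPM (Rpl29) and 3421 (Rps24) with the E18.5 label, with a median of 1658. With the P180 label they lay between 337 (Rpl31) and 2038 (Rplp1), with a median of 937. The 6 paralogues with their own symbols gave 0.460% and 0.638% of the members' UMIs. Of these Rpl22l1, a paralogue of Rpl22, stood at 348 and 262 CPM, Rps27l at 191 and 195, and Rpl7l1 at 41.5 and 48.9. Rpl39l, known from testis, had 17 and 104 UMIs, and Rpl3l, known from heart and skeletal muscle, had 32 and 102. Transcripts from processed pseudogenes, which this family has in large numbers, may share reads with the members.

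Among named classes of at least 50 cells, ribosomal protein transcripts made up the largest share of UMIs in lymphoid and antigen-presenting cells and the smallest in neutrophil-like cells labelled E18.5 and erythroid-like cells labelled P180. Of the summed UMIs labelled E18.5, the members gave 17.3% in T cell-like cells, 17.0% in dendritic-like, 15.4% in B cell-like and 14.0% in monocyte-like cells. NK cell-like, macrophage-like and plasma cell-like cells followed with 12.4%, 11.8% and 11.7%, and cholangiocyte-like cells with 8.89%. Endothelial-like cells were at 6.89%, mesenchymal-like cells at 4.12% and neutrophil-like cells at 2.96%. With the P180 label, B cell-like cells were at 20.1%, monocyte-like at 19.3% and dendritic-like at 16.8%. Endothelial-like cells were at 8.58% and neutrophil-like cells at 8.51%, while erythroid-like cells were at 3.04%. The highest share, over classes of at least 50 cells, was 5.83 times the lowest for cells labelled E18.5 and 6.61 times for cells labelled P180. The second value depends on haemoglobin: of the non-haemoglobin UMIs erythroid-like cells were at 8.37%, beside 8.65% in neutrophil-like and 8.97% in endothelial-like cells, and without haemoglobin and mitochondrial UMIs the ratio was 2.48. The 24 erythroid-like cells labelled E18.5 were at 0.909%.

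The shares depend on how cells are weighted, since in summed UMIs the deeper cells of each class had the larger share. By the median over cells this did not hold in cholangiocyte-like cells (9.05% below and 8.38% at or above the median depth) and neutrophil-like cells (2.17% and 1.88%) labelled E18.5. The median over cells was 4.32% in endothelial-like cells of the library labelled E18.5 and 3.64% in neutrophil-like cells of that labelled P180, below their summed shares. In B cell-like cells labelled P180, the 100 cells below the median depth had 14.0% and the 101 at or above it 21.4%. In the library labelled E18.5 the share also moved with mitochondrial content. Cells with under 5% mitochondrial UMIs had 14.5% of their UMIs from the members, and those with 20 to 25% had 4.51%. Within B cell-like cells the same bins had 17.1% and 7.98%, and within endothelial-like cells 9.65% and 3.15%. Neutrophil-like cells showed 6.79% in the lowest of these bins (21 cells) and 1.93 to 2.24% in the other 4, with no steady trend among those. A neutrophil-like cluster of 20 cells, led by S100a9, S100a8 and Camp, had 6.82% from the members and 3.54% mitochondrial UMIs. Its overlap with the lowest bin was not counted. The part of depth and of RNA quality in the differences between classes was not tested.

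**Figure D1:**
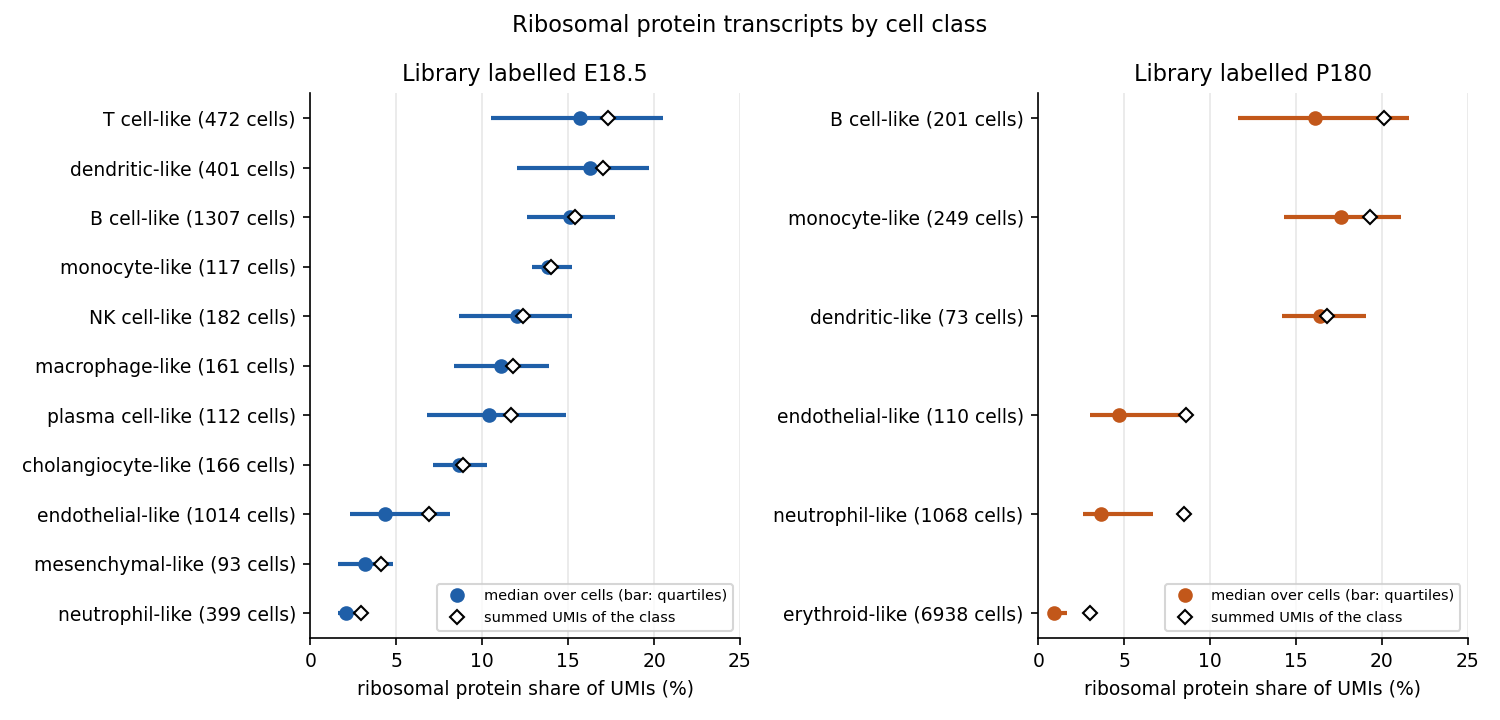
Share of UMIs from ribosomal protein genes (%, horizontal axis) by cell class, for classes of at least 50 cells, in each library. Circles are medians over cells with bars from the lower to the upper quartile, and diamonds are shares of summed UMIs. Diamonds run from 2.96% to 17.3% (E18.5) and from 3.04% to 20.1% (P180), and lie to the right of the circles where deep cells weigh most.

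Against the rest of the same library, whole classes stood lower or higher with nearly all members together. A member was counted when its level, in CPM, differed at least 2-fold, among genes with at least 50 UMIs on 1 side. Neutrophil-like cells labelled E18.5 were at least 2-fold lower in 79 of 80 members (57.0% of all 13448 genes compared), with a median log2 ratio of -2.29 against -1.29 for all genes. Rps9, a small subunit protein, was the exception at 1822 CPM against 2184. Mesenchymal-like cells were lower in 77 of 80 (20.7% of all genes), with medians of -1.61 and 0.00, and the 3 others were the paralogues Rpl22l1, Rps27l and Rpl7l1. Endothelial-like cells were lower in 38 of 80 (27.7% of all genes), Rplp0 of the ribosomal stalk the most so at 379.5 against 1542 CPM (log2 ratio -2.02, interval -2.10 to -1.95). None of the 80 was at least 2-fold higher in these classes, where 8.08% (neutrophil-like), 18.1% (mesenchymal-like) and 18.4% (endothelial-like) of all genes were. In the other 8 classes of this library few members passed 2-fold, though the family as a whole was shifted in some. Its median log2 ratio was 0.57 in dendritic-like cells (all genes -0.34), 0.48 in T cell-like (-0.20), 0.35 in B cell-like (-0.39) and -0.54 in cholangiocyte-like cells (0.11). In NK cell-like, macrophage-like, monocyte-like and plasma cell-like cells 0 members passed 2-fold, where 6.89%, 7.86%, 6.65% and 4.83% of all genes were higher and 24.6%, 26.4%, 35.0% and 48.2% lower. In B cell-like cells 1 member was higher (7.04% of all genes) and 1 lower (34.8%), and in T cell-like cells 1 higher (6.14%) and 1 lower (29.3%). Dendritic-like cells had 1 higher (7.45%) and 0 lower (28.5%), and cholangiocyte-like cells 1 higher (23.5%) and 4 lower (23.6%).

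Single members stood out in these classes. B cell-like cells labelled E18.5 held Rps27 at 3898 CPM against 1772 in the rest of the library, and Rps27l at 58.1 against 230.1. Rps27 and Rps27l are closely related small subunit proteins, and their ratios had opposite signs here (log2 ratios 1.14 and -1.98). T cell-like cells had Rps27l lower as well, at 91.4 against 201, and cholangiocyte-like cells had it higher, at 411 against 171. Rpl12, which sits at the base of the stalk, was at 2120.3 CPM in T cell-like cells against 1058 in the rest. Cholangiocyte-like cells were lower in Rps24 (1658 against 3582), Rps29 (1149.8 against 2509) and Rpl13a (581 against 1233).

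With the P180 label the counts against the rest of the library depended on whether haemoglobin UMIs were included. All 82 members compared were at least 2-fold lower in erythroid-like cells (75.1% of all genes), with a median log2 ratio of -2.27 against -2.44 for all genes, so the members lay close to the other genes. No member was higher there, and 7.56% of all genes were. Haemoglobin gave 63.7% of the UMIs in these cells, and with haemoglobin and mitochondrial UMIs left out the count was 22 (49.9% of all genes). B cell-like cells were higher in 80 of 82 members (45.6% of all genes), monocyte-like cells in 80 (48.3%) and dendritic-like cells in 53 (34.0%). Lower were 0 in B cell-like (14.9% of all genes) and dendritic-like cells (14.2%) and 1 in monocyte-like cells (13.3%), Rpl39l with 0 UMIs. Without haemoglobin and mitochondrial UMIs the higher counts were 9 in B cell-like (22.8% of all genes), 8 in monocyte-like (18.8%) and 2 in dendritic-like cells (17.1%). Endothelial-like cells had 1 member at least 2-fold higher (42.8% of all genes) and neutrophil-like cells 1 (18.3%), which was Rpl3l both times, and 0 were lower (11.5% and 28.6%). In endothelial-like cells that rests on 2 UMIs (log2 ratio 1.38, interval -1.68 to 3.28).

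The highest shares in the library labelled P180 lay in 2 clusters that received no class name. The 82 cells of the cluster led by Hspe1, Car1, Hspd1 and Npm1, with a median of 47001 UMIs, had 25.4% of their UMIs from the members. Npm1 is a nucleolar factor of ribosome assembly, and Hspe1 and Hspd1 form the mitochondrial chaperonin. Car1 is on the list of early erythroid genes used here, though 0 class markers were among the cluster's 50 genes of highest fold. Haemoglobin gave 1.49% of its UMIs, and its cells are not in the haemoglobin bins of erythroid-like cells below. The 60 cells led by Spp1, Clu, Apoe and Alb, with a median of 6342 UMIs, had 22.6%. Both exceed B cell-like cells, the highest of the named classes of at least 50 cells.

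Within the erythroid-like cells labelled P180, ribosomal protein transcripts were scarcer where haemoglobin took more of the UMIs. Shares are given here of the UMIs that are not haemoglobin, so that haemoglobin itself does not dilute them. In bins of 10 points of haemoglobin share, from under 10% (175 cells) to 80 to 90% (955 cells), the summed share of the members was 20.3%, 15%, 15.6%, 13.6%, 10.6%, 6.86%, 4.86%, 3.75% and 2.95%. The share was lower at every step but from the second to the third bin. From the first to the last bin the log2 ratio was -2.79. The 9 cells above 90% were at 5.63% (273 member UMIs).

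This decline was seen in the deep cells and in the sums they weigh on, and not in the median over all cells. The median over cells was 2.80% in the lowest bin and 2.56% in the 80 to 90% bin, and it lay between 1.54% and 3.26% in the 7 bins between them. In the lowest bin the 18 deepest cells held 65.2% of the non-haemoglobin UMIs and 82.2% of the member UMIs, and 68.0% of its cells had under 2000 UMIs. Among cells with at least 2000 UMIs, the medians by bin were 8.75% (56 cells), 13.1% (67 cells), 13.5%, 12.0%, 7.07%, 3.58%, 3.06%, 2.95% and 2.56%. Among cells under 2000 UMIs, found only below 60% haemoglobin, the medians were 1.24 to 2.05%. Those shallow cells had 1.92 to 2.95% of their non-haemoglobin UMIs from Malat1, a nuclear RNA, against 0.569 to 1.99% in the deeper cells of the same bins. With each cell given equal weight, the log2 ratio from the lowest to the highest bin was -1.31. The lowest bin held cells rich and poor in ribosomal protein transcripts side by side: 112 of the 175 cells in the lowest bin were under 5% and 30 were at 15% or more. In the 80 to 90% bin, 901 of 955 cells were under 5% and 0 reached 15%.

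**Figure D2:**
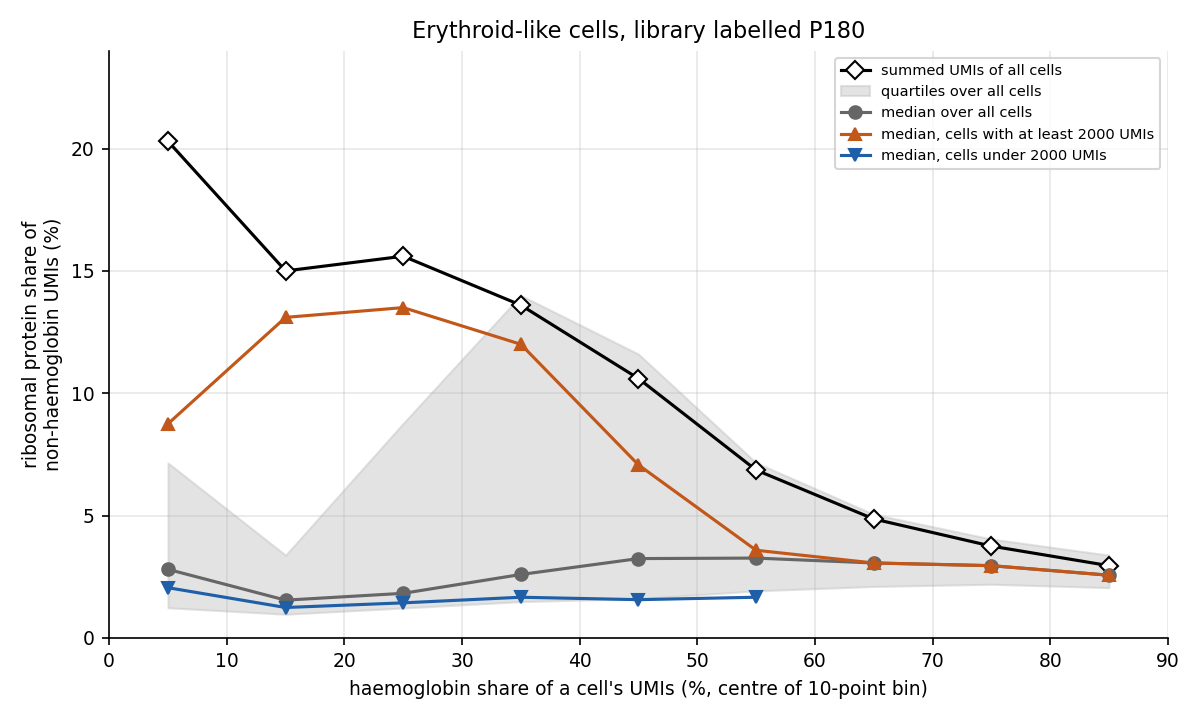
Ribosomal protein share of non-haemoglobin UMIs (%, vertical axis) against the haemoglobin share of each cell's UMIs (%, bin centres), for erythroid-like cells labelled P180. Diamonds are summed UMIs, circles medians over all cells with the quartiles shaded, upward triangles medians of cells with at least 2000 UMIs and downward triangles those of shallower cells. The summed line goes from 20.3% to 2.95%, the median line from 2.80% to 2.56%.

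Nearly all members took part in the summed decline, but not equally. In the highest over the lowest bin, 79 of the 80 members compared were at least 2-fold lower (56.5% of all 3713 genes compared) and 0 higher (19.4%). The members' median log2 ratio was -2.95 and that of all genes -1.47. The values for all genes depend on the minimum of UMIs. With at least 200 UMIs on 1 side, 476 of 1251 genes (38.0%) were lower and 503 higher, with a median of 0.16. At that minimum 78 of 79 members were lower, with a median of -2.95. In summed levels 79 members were highest in the lowest of the 9 bins, where 37.7% of all genes were, and 80 were lowest in the highest bin, where 56.6% were. Lower at every step were 26 of 80 members (32.5%) and 5.85% of all genes. With each cell given equal weight, 61 of the 80 members were at least 2-fold lower (54.5% of all genes), with medians of -1.43 and -1.27. The members' median was then near that of all genes with at least 50 UMIs. That weighting was not run with the higher minimum.

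The small subunit protein Rps18 had the largest ratio. Its level in CPM of non-haemoglobin UMIs was 3263, 2425, 2382, 1858, 1204, 533, 276, 146 and 115 over the 9 bins, lower at each step. The highest bin was 28.3-fold below the lowest (log2 ratio -4.82, interval -5.07 to -4.58). Rpl12 went from 2595 to 123 (log2 ratio -4.40), Rpl18 from 2135 to 106 (-4.33), Rpl22 from 1511 to 83.8 (-4.17) and Rpl13a from 2083 to 123 (-4.09). Rpl5, which with Rpl11 and the 5S RNA binds Mdm2 and so stabilises p53, went from 1746 to 106 (-4.04). Rpl11 itself went from 2427 to 314 (-2.95), so these partners differed in ratio by more than their intervals.

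Rpl41, whose product is the smallest ribosomal protein, was the member that kept most of its level. Over the bins it stood at 4869, 4349, 4813, 4566, 4074, 3442, 2973, 2872 and 2632 CPM of non-haemoglobin UMIs. The log2 ratio of -0.89 (interval -0.95 to -0.82) made it the 1 member short of 2-fold. The next were Rpl34 (from 1946 to 653, log2 ratio -1.58), Rpl24 (from 1722 to 524, -1.72), Rpl37a (from 1824 to 524, -1.80) and Rps29 (from 1848 to 493, -1.90). Rpl41 gave 4.27% of the member UMIs of erythroid-like cells and 1.78% of those of dendritic-like cells.

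Members with known roles in red cell disease followed the family. Of the 19 members mutated in Diamond-Blackfan anaemia, all were at least 2-fold lower in the highest bin, with a median log2 ratio of -2.92, beside 79 of 80 in the family and 56.5% of all genes. Rps19, the gene most often mutated, had 2983, 2329.8, 2519, 2349, 1876, 1238, 819, 554 and 393 CPM of non-haemoglobin UMIs over the bins (log2 ratio -2.92, interval -3.07 to -2.79). The stalk proteins, which recruit translation factors to the large subunit, did not move alike: Rplp1 was at -3.15, Rplp2 at -2.24 and Rplp0 at -2.11. Of the paralogues, Rps27l (-3.14) was close to Rps27 (-3.28), and Rpl22l1 (-2.04) differed less than Rpl22. All 32 small subunit members and 47 of the 48 large subunit members were past 2-fold, with medians of -3.21 and -2.88.

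**Figure D3:**
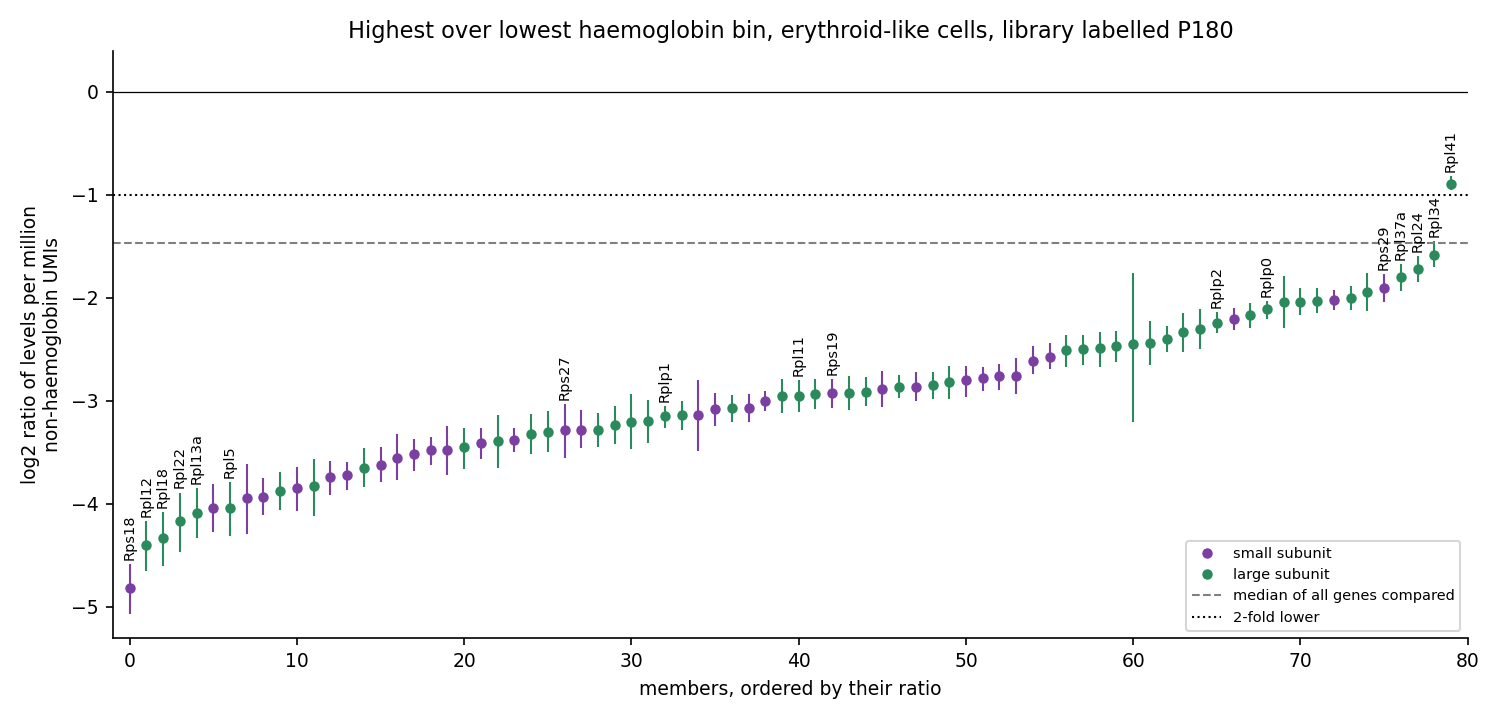
Log2 ratio (vertical axis) of each member's level in CPM of non-haemoglobin UMIs in the highest over the lowest haemoglobin bin, for the 80 members with at least 50 UMIs in 1 of the bins, in rising order. Points are summed levels with 95% counting intervals, small subunit in purple and large subunit in green. The dashed line is the median of all genes compared (-1.47). The members run from -4.82 (Rps18) to -0.89 (Rpl41), the 1 point above the 2-fold line.

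Other parts of the translation machinery were read in the same bins, where 56.5% of all genes were at least 2-fold lower and 19.4% higher. Of the ribosomal proteins whose names fall outside the rule, Fau (log2 ratio -2.76), Rack1 (-3.74) and Rpl36al (-3.73) were lower like the members. Of 30 ribosome assembly genes, the 14 with enough UMIs were all at least 2-fold lower (median -3.27), Npm1 by -3.20 and Ncl by -2.63 among them. Of 47 mitochondrial ribosomal proteins compared, 45 were at least 2-fold lower (median -3.88). The 39 translation factors were divided: 29 were lower, with Eef1a1 at 501 against 4738 CPM (-3.24), and 2 were higher. Eif5, which helps select the start codon, was at 9828 against 506 (log2 ratio 4.28), and Tpt1 differed little (4462 against 4333, 0.04).

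Genes of protein and ribosome removal were divided as well, beside 56.5% of all genes lower and 19.4% higher. Of the 14 proteasome core genes 10 were at least 2-fold lower (median -1.63), near the median of all genes with at least 50 UMIs (-1.47). With at least 200 UMIs the median of all genes was 0.16. Of 8 genes of ribosome rescue and turnover compared, 2 were higher and 2 lower. Ube2o, a ubiquitin ligase known to clear ribosomal proteins from reticulocytes, was the highest of them, at 2512 against 89.6 CPM (log2 ratio 4.81, interval 4.49 to 5.15). Gtpbp2, which aids stalled ribosomes, was at 289 against 63.8 (2.18). Of 7 growth control genes compared, 4 were lower and 0 higher, so the lower ones were near the share of all genes with at least 50 UMIs. Larp1, a binder of terminal oligopyrimidine messages, was at 50.6 against 148 (-1.55).

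Markers of maturation, division and other cells moved along the bins too. All 10 late erythroid genes were at least 2-fold higher in the highest bin (19.4% of all genes), with a median of 3.88. All 15 proliferation genes were lower (56.5% of all genes), with a median of -4.17 and Top2a at 27.7 against 823 CPM. Malat1 was at 25369.9 against 7296 (log2 ratio 1.80). The 18 neutrophil markers summed to 1057 CPM in the lowest bin and 4527 in the highest. The 16 B cell markers went from 2044 to 7254 CPM and the 16 mesenchymal markers from 122 to 813, while T cell and hepatocyte markers were at most 20.6 CPM in both. Such sums can rest on few genes. In the lowest bin 14 of the 16 mesenchymal markers had 0 UMIs. In the 9 cells above 90% haemoglobin, 15 of the 16 B cell markers had 0, and the list still held 62 UMIs. The sums are therefore not read as transcripts of B cells or mesenchymal cells. The part of nuclear RNA and of transcripts of other cells in the decline was not tested. Among cells with an Mki67 or Top2a UMI the summed share was 20.4% in the lowest and 2.95% in the highest bin. In the lowest bin 162 of the 175 cells had one, and the few others were not read, so their decline from that bin is not known. From the 10 to 20% bin on, the share in cells without one was 1.42%, 1.64%, 1.68%, 1.82%, 3.79%, 4.65%, 3.63% and 2.95%, with no such decline. Those cells were shallow below 50% haemoglobin, with median depths of 756 to 1489.5 UMIs.

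Neutrophil-like cells labelled P180 fell into 4 clusters whose ribosomal protein share differed widely. The Elane-led cluster (151 cells), with the primary granule genes Elane, Prtn3 and Mpo, had 18% of its summed UMIs from the members. The clusters led by Ngp and S100a8 (404 cells) and by Ngp and Stfa3 (372 cells) had 5.99% and 3.36%, and the Retnlg-led cluster (141 cells) had 1.95%. Primary granule genes are made by promyelocytes, Ngp at the stage of secondary granules and Retnlg in mature neutrophils. The medians over cells were 17.4%, 4.76%, 3.13% and 1.79%, so here the typical cell had the same order. Median depth had the same order, at 39199, 22700.0, 12016 and 6422 UMIs, and its part in the shares was not tested. Clusters had been formed without the member genes, and this pair was set side by side after the clusters had been seen.

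All 80 members compared were at least 2-fold lower in the Retnlg-led than in the Elane-led cluster (48.8% of all 7623 genes compared) and 0 were higher (14.6%), with a median log2 ratio of -3.30 against -0.94 for all genes. Rpl3, a core protein of the large subunit, had the largest difference. It stood at 1918 CPM in the Elane-led cluster, 449.7 and 139.7 in the clusters led by Ngp and 50.6 in the Retnlg-led one (log2 ratio -5.24, interval -5.67 to -4.85). Rpl12 stood at 2077, 529.7, 169 and 63.6 in the same order, and Rpsa, also known as the laminin receptor, at 3719, 1205, 434 and 116. Their counting intervals did not overlap from cluster to cluster.

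Rps9, Rps27 and Rps27a were the members that kept most of their level. Rps9 stood at 2678 CPM in the Elane-led cluster, then at 1468, 1346 and 1277 (log2 ratio of the last over the first -1.07). Rps27 stood at 956, 413, 335 and 362 (-1.40), and Rps27a, made as a fusion with ubiquitin, at 4049, 1538, 1272 and 1243 (-1.70). Most of the difference of these members lay in the first step. Each was lower again in the second step by less, with counting intervals that did not overlap. In the last step their intervals overlapped, while Rpl3 and Rpsa were lower at each step. Rps19 followed the larger group, at 2728, 1074, 457 and 140.0. Rpl3l went the other way on few counts, with 2 UMIs in the Elane-led cluster, 11 and 27 in those led by Ngp and 33 in the Retnlg-led one. Among the other lists, 24 of 27 ribosome assembly genes, 71 of 76 mitochondrial ribosomal protein genes and 33 of 39 translation factors were at least 2-fold lower, beside 48.8% of all genes. Here too a weak gene could enter through the cluster where it is high.

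**Figure D4:**
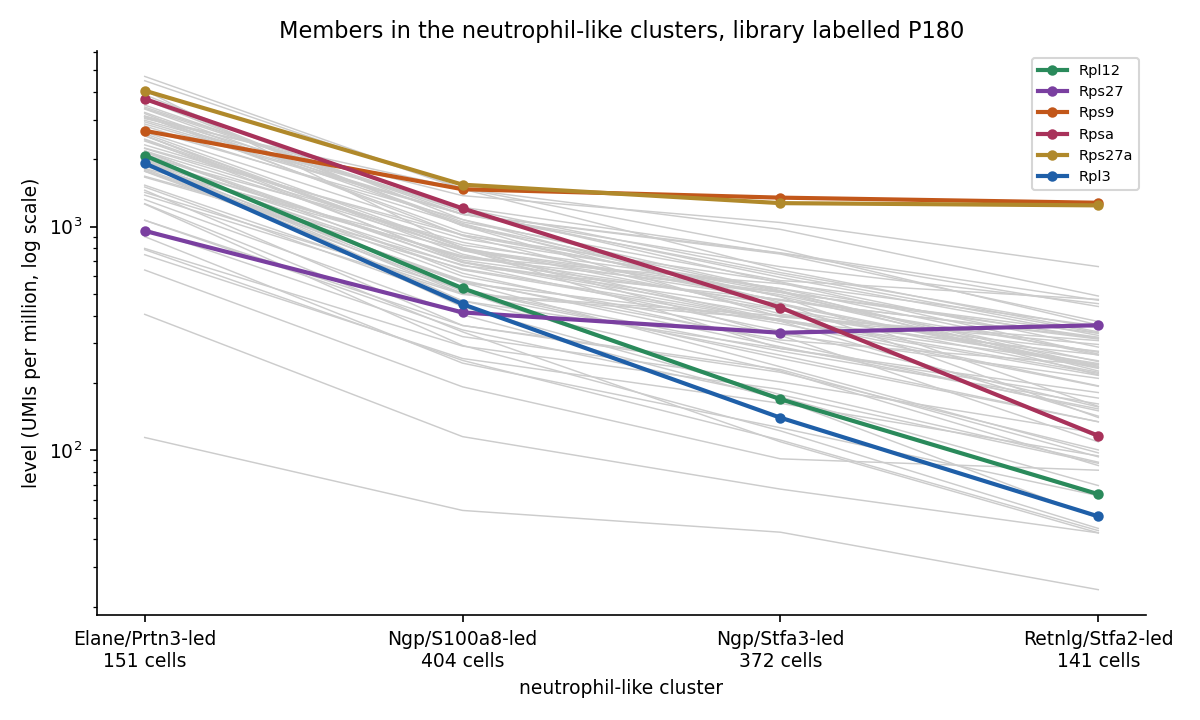
Level of each member (CPM, log scale) in the 4 neutrophil-like clusters labelled P180, ordered by the summed level of the members. Grey lines are the members with at least 50 UMIs in 1 cluster, and 6 are drawn in colour. Rpl3, Rpl12 and Rpsa end at 50.6, 63.6 and 116, while Rps9 and Rps27a end at 1277 and 1243.

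The order of members in the haemoglobin bins and in the neutrophil-like clusters was only partly alike. Across 75 members the log2 ratios of both comparisons had Pearson's r of 0.46 and Spearman's rho of 0.51, given as a description over genes that share libraries and depth. Rpl12 was among the largest differences in both. Rps27a was among the smallest in the neutrophil-like clusters (-1.70) and beyond the members' median in the haemoglobin bins (-3.52). Rpl41 was nearest to no difference in the haemoglobin bins alone.

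Between the libraries, 5 classes could be set side by side, and each ratio compares preparation, content and label at once. In dendritic-like cells (73 cells labelled P180 and 401 labelled E18.5) the family was level: 0 of 80 members differed at least 2-fold in either direction, where 2.25% of all genes were higher and 9.61% lower, and the median log2 ratio was 0.00. In endothelial-like cells labelled P180, 6 of 80 members were at least 2-fold higher (4.90% of all genes) and 0 lower (10.1%), with medians of 0.42 for the members and 0.02 for all genes. The 6 were Rplp0, Rpl29, Rpsa, Rpl15, Rps2 and Rpl10a, but this did not hold under other settings. With cells above 10% mitochondrial UMIs left out, 1 member was higher (4.03% of all genes) and 2 lower (14.7%), with medians of -0.03 and -0.20, and with no doublets left out the medians were 0.11 and -0.15. In B cell-like cells 11 were higher (23.4% of all genes) and 1 lower (18.2%), with medians of 0.46 and 0.09. In monocyte-like cells 12 were higher (31.0%) and 0 lower (8.43%), with medians of 0.52 and 0.47. The members' median was there near that of all genes, and a smaller share of them passed 2-fold in either direction.

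In neutrophil-like cells labelled P180, 71 of 81 members were at least 2-fold higher (35.9% of all genes) and 1, Rpl3l, was lower (18.1%), with medians of 1.73 and 0.46. Different clusters make up the class in the libraries: 379 of its 399 cells labelled E18.5 lay in 1 cluster led by S100a9, S100a8 and Retnlg, while the clusters led by Ngp held 404 and 372 of 1068 cells labelled P180. The mix of clusters and the library cannot be told apart here. Rpsa had the largest ratio, at 1672 against 214 CPM (log2 ratio 2.97). Rps9 (1765 against 1822, -0.05, interval -0.10 to 0.01) and Rpl37 (752 against 783, -0.06) were level.

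Rps27, a zinc-binding protein of the small subunit, had the lowest ratio in each of the 5 classes among members with at least 200 UMIs. With the P180 and the E18.5 label it stood at 1688 and 3898 CPM in B cell-like cells, the 1 member at least 2-fold lower there (log2 ratio -1.21, interval -1.26 to -1.16). In the same order it was at 1282 and 2014 in dendritic-like cells (-0.65), 878 and 1452 in endothelial-like cells (-0.73), 1099 and 1975 in monocyte-like cells (-0.85) and 543 and 897 in neutrophil-like cells (-0.72). The sign was thus the same in all 5 classes, which share their 2 libraries and so are not independent.

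Rplp0 and Rpl29 stood at the other end in several classes. Rplp0, the stalk protein often used as a reference gene, was at 4027 with the P180 and 1233 with the E18.5 label in B cell-like cells (log2 ratio 1.71), and at 1444 and 379.5 in endothelial-like cells (1.93). It was at 3137 and 2308 in dendritic-like (0.44), 3811 and 2113 in monocyte-like (0.85) and 1644 and 287 in neutrophil-like cells (2.52). Rpl29, a heparin-binding large subunit protein, was at 886 and 271 in B cell-like cells (1.71) but at 567 and 648 in dendritic-like cells (-0.19). Rps27l, a target of p53, was at 373 and 58.1 in B cell-like cells (2.68) and at 343 and 314 in dendritic-like cells (0.13). In B cell-like cells 46 UMIs of Rpl39l were counted with the P180 label and 1 with the E18.5 label. All 15 proliferation genes were at least 2-fold higher in B cell-like cells labelled P180 (median 5.76), where 23.4% of all genes were. The part of proliferation in these ratios was not tested.

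**Figure D5:**
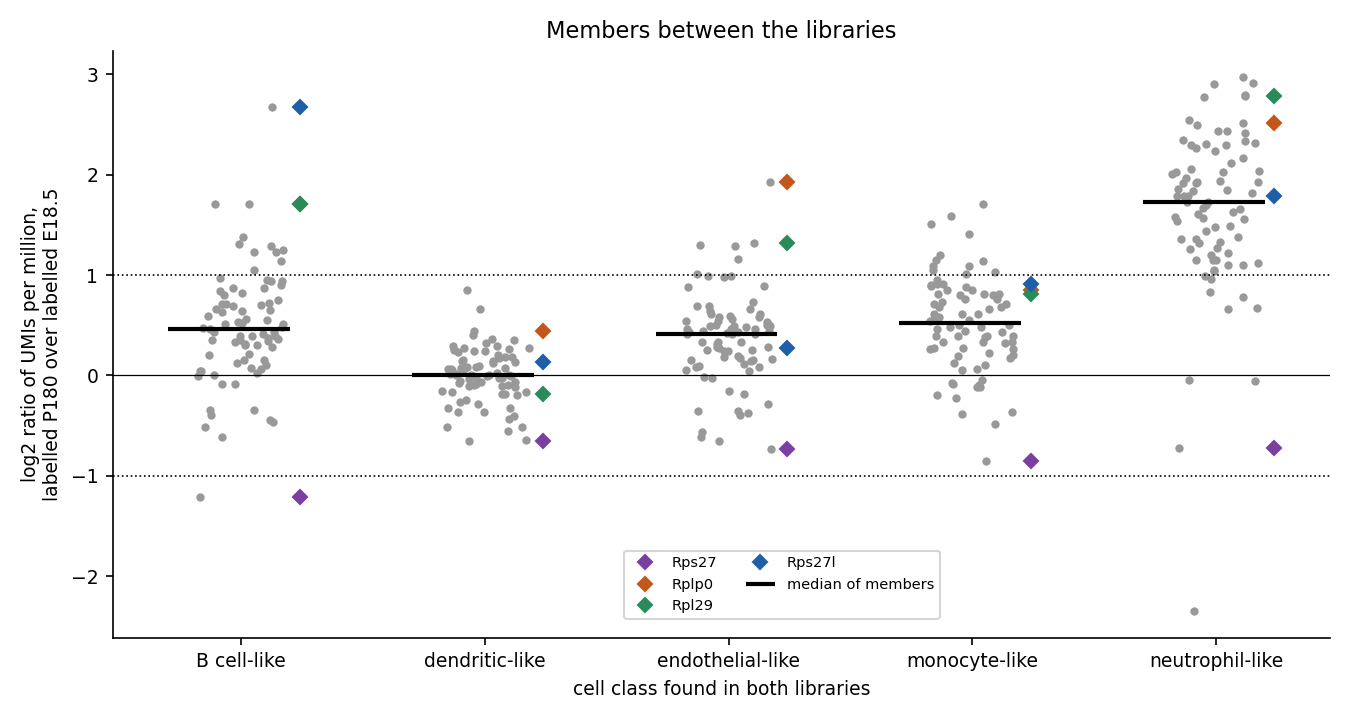
Log2 ratio of CPM, labelled P180 over labelled E18.5 (vertical axis), for the members with at least 50 UMIs on 1 side in each of the 5 classes found in both libraries. Grey points are members, black bars their medians, coloured diamonds 4 named members, and dotted lines mark 2-fold. Rps27 lies below 0 in each class, from -1.21 to -0.65, while the medians run from 0.00 to 1.73.

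Within the family, most members kept a similar share of the member UMIs from class to class, over classes with at least 50000 member UMIs. As a share of all member UMIs, 67 of 78 members with at least 200 UMIs in each of 9 classes ranged less than 2-fold with the E18.5 label, with a median log2 range of 0.65, and 11 ranged further. Neutrophil-like and mesenchymal-like cells are not among these 9 classes, and in the former Rps9 alone was 6.15% of the member UMIs. With the P180 label 74 of 77 members ranged less than 2-fold over 6 classes, with a median of 0.48. These are sums over whole classes, and the makeup differed within them. From under 10% to 70 to 80% haemoglobin, Rpl41 went from 2.40% to 7.65% of the member UMIs of erythroid-like cells. Rps18 went from 1.61% to 0.390%. The Elane-led cluster gave 1043140 of the 1791023 member UMIs of neutrophil-like cells. Rpl29 had the widest range with the E18.5 label, from 0.176% of member UMIs in B cell-like cells to 0.597% in cholangiocyte-like cells. Rplp0 ranged from 0.551% in endothelial-like to 1.81% in plasma cell-like cells, and Rpl22l1 from 0.214% in dendritic-like to 0.655% in cholangiocyte-like cells. With the P180 label Rpl29 ranged from 0.338% in dendritic-like to 0.816% in erythroid-like cells.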

How the data were processed

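Per the file headers, the authors ran Cell Ranger 7.1.0, and the tables they deposited hold unnormalised UMI counts for every gene and barcode of 2 10x 3′ libraries. The submitters' processing notes name mm10. Barcode calling and intronic reads were not given in the sources used here. Members, gene lists and marker sets were chosen with earlier results of these data known.

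A barcode was kept from 500 UMIs and 200 genes upward, with mitochondrial genes below 25% of its UMIs. That kept 4721 of 9871 barcodes labelled E18.5 (47.8%) and 9582 of 9771 labelled P180 (98.1%). For doublets, Scrublet was run in scanpy 1.11.5 and the highest scores were left out, at 0.8% per 1000 barcodes, which removed 178 and 735 barcodes. Scrublet's own threshold marked 79 and 0, so it did not separate doublets with the P180 label. Each library was clustered without the member genes (2000 variable genes, 30 components, 15 neighbours, Leiden at resolution 1 with leidenalg 0.10.2). A cluster took the class with most of its markers among the 50 genes of highest fold, with at least 3, and stayed unnamed where its 10 leading genes held more markers of another class. That naming rule was set after clusters had been seen.

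Levels are summed UMIs per 1000000 UMIs. Ratios carry exact conditional Poisson intervals and shares exact binomial ones, at the 95% level (scipy 1.17.1). A side with 0 UMIs was set to a floor of 3 counts. The haemoglobin bins use UMIs without haemoglobin, in bins of at least 100 cells. The calculations were tested on simulated counts.

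Named members are the 3 highest and 3 lowest ratios of each comparison (5 and 5 for the haemoglobin bins) among those with at least 200 UMIs on 1 side, the 5 widest ranges of makeup, the paralogues, the stalk genes, Rps19, Rpl5 and Rpl11, and at most 4 genes of each other list. Some genes that the rule names are not reported here. Rps27a in the haemoglobin bins and the lists of members past 2-fold were named after their values were seen. The comparison of neutrophil-like clusters, the depth split and the mitochondrial bins were added after the data had been seen.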

Additional observations from a re-analysis of the deposited data

How the results depend on the processing

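No paired analysis was possible because each label has 1 library and the comparisons rest on no test. For the same reason no library could be left out. Of 209 recomputed counts and ratios that answer a comparison, 175 stayed within 1.5 times or within their counting interval, and 34 did not. A reversal could be marked only for the log2 ratio of the member share between haemoglobin bins, and 0 were. Of 99 other values, the shares of single classes, 27 stayed within their narrow counting interval and 72 did not. The cause was not tested, except where the setting itself leaves out haemoglobin UMIs or members. The highest over the lowest class share became 5.66 (E18.5 label) and 2.48 (P180 label) without haemoglobin and mitochondrial UMIs, 6.82 and 8.78 as a mean over cells, and 4.53 and 7.07 with a mitochondrial limit of 10%. It was 5.31 with the E18.5 label when no doublets were left out, and 6.68 with the P180 label when members were allowed in clustering. Against the rest of the library, without haemoglobin and mitochondrial UMIs, members past 2-fold upward among cells labelled P180 were 9 in B cell-like, 2 in dendritic-like, 0 in endothelial-like and 8 in monocyte-like cells. Members lower were 22 in erythroid-like and 10 in neutrophil-like cells, and 7 in cholangiocyte-like cells labelled E18.5. With a minimum of 200 UMIs, 0 members were higher in endothelial-like and neutrophil-like cells and 0 lower in monocyte-like cells labelled P180, and with members allowed in clustering 3 were higher in dendritic-like cells labelled E18.5. The log2 ratio of the member share between haemoglobin bins, -2.79, became -5.23 of all UMIs, -2.27 over all kept cells (whose lowest bin holds 1967 cells, mostly of other classes), -2.75 with no doublets left out, -2.61 for cells with at least 2000 UMIs (from the 20 to 30% bin, the first with 100 cells), -1.31 as a mean over cells and -0.13 as a median over cells. The count of members at least 2-fold lower there was between 61 and 80 under the alternatives run, with 61 for the mean over cells. Between the libraries, 6 members were higher in B cell-like cells under median-of-ratios scaling. In endothelial-like cells 1 was higher and 2 lower with a mitochondrial limit of 10%, and 2 and 1 with no doublets left out. In dendritic-like cells 1 was higher with no minimum, and in neutrophil-like cells 0 were lower with a minimum of 200 UMIs. With a minimum of 1000 UMIs in each class, 6 of 59 members (E18.5 label) and 1 of 9 (P180 label) ranged at least 2-fold in makeup. All 80 members of the neutrophil-like cluster comparison stayed at least 2-fold lower under both alternatives run for it.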
